A study of Rattus norvegicus with 16 samples.

Results

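Arrdc3 (ENSRNOG00000045649) encodes an arrestin-domain protein and is 1 of the 32883 genes counted in the nucleus basalis of Meynert of rats. The gene was taken by its identifier because it had been higher after stress in these libraries. Its stress values are therefore given as a description, with no test. Differences between the sexes and neighbouring genes were not used to choose it. Choosing a gene that stands out between groups can favour a small spread within them. The spread among libraries, and the SE values that rest on it, are therefore not free of that choice.

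The nucleus basalis lies in the basal forebrain and sends cholinergic fibres to the cortex. Bulk RNA was measured in 16 libraries from Long Evans rats aged at least 70 days, in a study of how stress regulates attention and its cholinergic neurons. All animals, controls included, were ChAT::Cre rats, in which Cre recombinase is expressed in cells that make choline acetyltransferase. The 4 groups were stressed females, control females, stressed males and control males, each with 4 libraries. The stress is given only as a group label and as the abbreviation VS. The labels do not say whether libraries stand for separate animals, and the p-values then reflect only how these libraries vary, which may be technical. Libraries are called by the number in their title, and for the stressed females the number given with the counts differs from it. In bulk RNA, fewer cells of a type and less RNA per cell cannot be told apart.

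Arrdc3 belongs to the alpha-arrestins, the more ancient branch of the arrestin family, together with Arrdc1, Arrdc2, Arrdc4, Arrdc5 and Txnip. These proteins carry arrestin folds, and the tails of most of them hold proline-rich motifs that bind the WW domains of ubiquitin ligases of the Nedd4 family. Members with these motifs act as adaptors that bring such ligases to membrane proteins. Arrdc3 in particular is known for its part in the ubiquitination and trafficking of beta-adrenergic receptors and, in mice, for limiting energy expenditure.

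On Rnor_6.0 the gene lies on the plus strand of chromosome 2, from 8732932 to 8743069. The annotation used for counting gives it 8 exons with 1678 exonic bases in a span of 10138 bases, so that exons fill 16.6% of the span. Exon 1 has 515 bases and starts at 8732932, and exon 8 has 255 bases and ends at 8743069. The smallest exon is exon 2, with 82 bases (8736881 to 8736962). No other annotated gene overlaps Arrdc3 (0 genes on either strand), so its reads are shared with no annotated partner. In RefSeq's newer build GRCr8 the gene spans 12515 bases, longer than in the annotation used here, and reads outside the annotated exons were not counted for it.

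The promoter from RefSeq is shown because it precedes the start of the RNA whose level is described. It holds 250 bases before the annotated start in lower case and 50 bases from the start onward in capitals, 5′ to 3′ on the plus strand, at chr2:12872952-12873251 in GRCr8, a build whose positions do not correspond to those of Rnor_6.0.
Arrdc3 promoter: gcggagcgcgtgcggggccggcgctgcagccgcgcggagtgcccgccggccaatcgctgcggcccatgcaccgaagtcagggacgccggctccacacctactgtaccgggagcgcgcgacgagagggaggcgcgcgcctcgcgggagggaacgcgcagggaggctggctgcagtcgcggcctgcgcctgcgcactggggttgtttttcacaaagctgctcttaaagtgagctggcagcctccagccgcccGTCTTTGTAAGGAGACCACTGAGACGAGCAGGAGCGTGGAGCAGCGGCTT

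These 300 bases were rich in G and C, at 70.0% against a median of 51.7% over 33469 promoters of the same length. They held 37 CpG dinucleotides against a median of 7, more than in 95.2% of the promoters. Of 7 motifs searched on both strands, the Arrdc3 window held 0. The motifs were the palindromic glucocorticoid response element, found in 0.439% of all promoters, and its half-site AGAACA, found in 20.7%. The cyclic AMP response element TGACGTCA was found in 1.83% and its half-site TGACG, which lies inside it, in 21.2%. The FoxO site GTAAACA was found in 3.78%, the AP-1 site TGANTCA in 7.33% and the E-box CACGTG in 6.42%. Among the promoters of Arrdc1, Arrdc2, Arrdc4 and Arrdc5, that of Arrdc4 held 1 E-box and that of Arrdc1 held 1 TGACG. No match says only that these letters are not in this window.

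Counts of Arrdc3 ran from 278 to 1462 per library. Levels are counts per M (mega) counts, CPM, normalised by the trimmed mean of M values (TMM), which scales libraries so that most genes do not differ. In stressed females Arrdc3 had 25.5, 25.4, 24.3 and 20.3 CPM in libraries 1, 2, 3 and 4. In control females it had 14.2, 11.5, 12.6 and 16.5 CPM in libraries 6, 7, 8 and 10. All 4 stressed females lay above all 4 control females, as in 1.72% of the genes tested, with stressed female 4 the lowest and control female 10 the highest of their groups. In stressed males the level was 19.4, 17.7, 20.0 and 23.4 CPM in libraries 11, 12, 13 and 14, and in control males 11.6, 13.2, 14.5 and 12.6 CPM in libraries 16, 17, 18 and 20. The stressed males likewise lay above the control males, as in 2.96% of the genes tested.

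**Figure D1:**
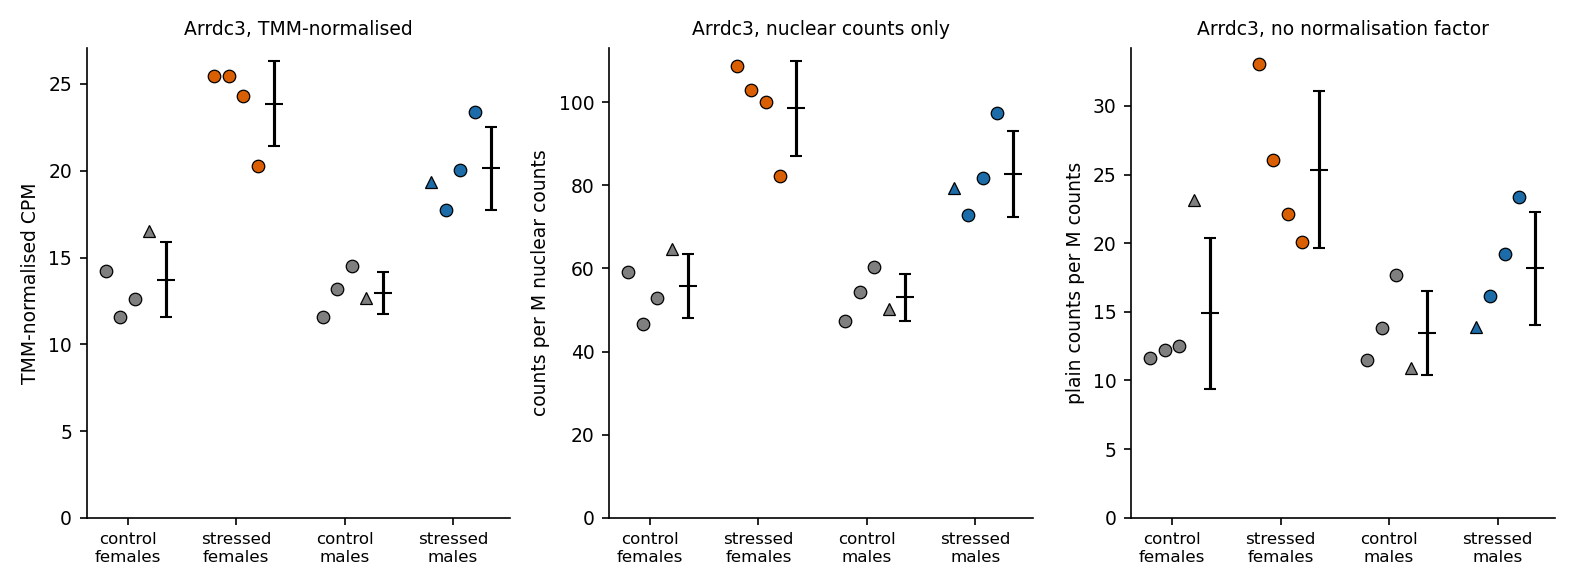
Arrdc3 in each of the 16 libraries by group, as TMM-normalised CPM (left), as counts per M nuclear counts (middle) and as plain counts per M of all counts (right). Circles are libraries counted with HTSeq, triangles those counted with featureCounts, and bars are the mean ± SD of 4 libraries. Stressed and control libraries do not overlap in the left and middle panels and do overlap in the right one.

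Stressed females had a mean of 23.9 ± 2.5 CPM and control females one of 13.7 ± 2.2 CPM (SD, n = 4). Stressed males had 20.1 ± 2.4 CPM and control males 13.0 ± 1.2 CPM (SD, n = 4). In the fit over all libraries Arrdc3 was 1.73-fold higher with stress in females (log2 fold change 0.79, SE 0.13) and 1.55-fold higher in males (log2 fold change 0.63, SE 0.13). On average over the sexes it was 1.64-fold higher (log2 fold change 0.71, SE 0.089), while the median of the 14241 genes tested was a log2 fold change of 0.01. The lowest stressed library, male 12 at 17.7 CPM, stood above the highest control library, female 10 at 16.5 CPM, so on this scale, though not on plain counts per M counts, all 8 stressed libraries lay above all 8 controls. Of the genes tested, 0.112% had this arrangement, and 0.14% had it within each sex.

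The share of mitochondrial counts, which took 64.2% to 82.5% of a library, entered the plain counts per M counts. Stressed females had 74.4% ± 3.5 and control females 73.6% ± 6.8, while stressed males had 78.2% ± 3.0 and control males 74.9% ± 3.1 (SD, n = 4). On the scale of nuclear counts alone, with no further factor, Arrdc3 stood at 98.5 ± 11 per M in stressed females against 55.8 ± 7.8 per M in their controls (SD, n = 4). In males it was 82.8 ± 10 against 53.1 ± 5.7 per M (SD, n = 4). There the lowest stressed library was at 72.8 per M and the highest control at 64.7 per M, so the groups did not overlap on this scale. The share of all genes with this arrangement was not computed for nuclear counts. As the gene was chosen for its rise, this too is only a description. On plain counts per M of all counts, control female 10 reached 23.2 and stressed male 11 stood at 13.9, and only 2 of 4 stressed libraries of each sex were above their highest control. Without TMM factors on all counts the median of all genes shifted by -0.20 in males and Arrdc3 had a log2 fold change of 0.43 (SE 0.23), which is 0.63 above that median. In females the log2 fold change was then 0.76 (SE 0.23).

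Totals of the counts assigned to genes were 22.7 to 38.2 M in 13 libraries counted with HTSeq and 63.1 to 73.8 M in 3 libraries counted with featureCounts, which are control female 10, stressed male 11 and control male 20. In these 3 libraries mates were counted singly, and no stressed female was among them. Control female 10 was the highest of its group for Arrdc3. Stressed male 11 and control male 20 lay inside the range of the HTSeq libraries of their groups. Without the featureCounts libraries, control females had 12.8 ± 1.3 CPM, stressed males 20.4 ± 2.8 CPM and control males 13.1 ± 1.5 CPM (SD, n = 3). The average log2 fold change in a fit of these 13 libraries was 0.77.

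Control female 7 and stressed male 14 stood apart in the share of reads not aligned, at 40.8% and 38.8% against 13.2% to 15.4% in the other HTSeq libraries. Control female 7 was the lowest control female for Arrdc3 and stressed male 14 the highest stressed male. In a fit that left out both, the log2 fold change of Arrdc3 was 0.71 (SE 0.13) in females, 0.55 (SE 0.13) in males and 0.63 (SE 0.090) on average. The part of the unaligned share in the stress difference was not tested otherwise. Entries that name no gene, unaligned reads among them, were 62.5% and 64.7% in these libraries and 62.0% in stressed female 1. The other HTSeq libraries had 44.8% to 53.0%. Stressed female 1 was also the highest library for Arrdc3, at 25.5 CPM, next to stressed female 2 at 25.4 CPM. Without stressed female 1 the log2 fold change in females was 0.76 (SE 0.13).

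The order of the 4 group means was stressed females, stressed males, control females and control males. Neighbours in that order within a treatment were the sexes, and these were tested, since the choice of the gene did not use them. In controls the sexes overlapped, at 11.5 to 16.5 CPM in females and 11.6 to 14.5 CPM in males. The log2 difference, female minus male, was 0.09 (SE 0.13, 95% interval -0.17 to 0.35; adjusted p = 0.946 by edgeR). As a ratio the interval runs from 0.888 to 1.27 times the male level. For this comparison 0.112% of genes were called, and Arrdc3 was not among them. Without control female 10 the difference was -0.015, and in the 13 HTSeq libraries -0.031.

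In stressed rats 3 of 4 females lay above the highest male, at 23.4 CPM, and 3 of 4 males lay below the lowest female, at 20.3 CPM. The share of all genes with such an arrangement of the sexes was not computed. The female mean was higher by a log2 difference of 0.25 (SE 0.12, 95% interval -0.01 to 0.50), a difference not called by edgeR (adjusted p = 0.870, unadjusted p = 0.0577). For this comparison 0.0913% of genes were called. The effect of stress in females minus that in males was 0.16 on the log2 scale (SE 0.18, 95% interval -0.21 to 0.52; adjusted p = 1.0 by edgeR). That interval covers a female effect from 0.866 to 1.44 times the male effect, as a ratio of folds. By edgeR 0 genes, or 0% of those tested, were called for this difference, with 571 at an unadjusted p under 0.05, while DESeq2 called 1 and limma voom 0.

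**Figure D2:**
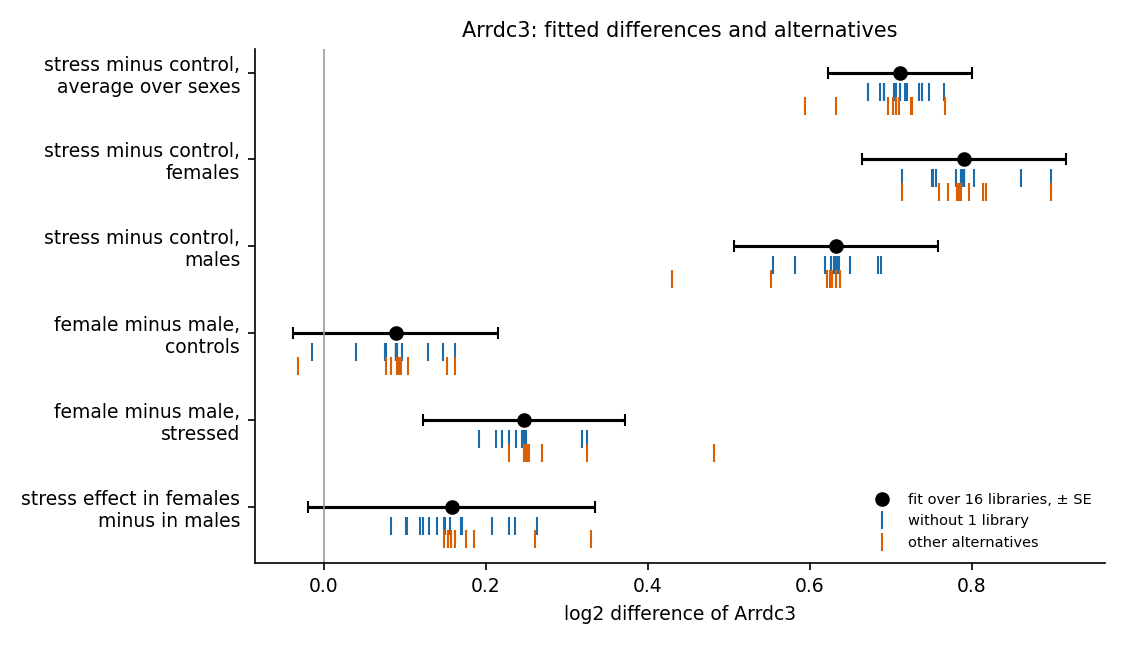
Log2 differences of Arrdc3 in 6 comparisons (horizontal axis). Black points with bars are the fit over 16 libraries ± SE, blue ticks are fits without 1 library and orange ticks are the other alternatives. The 3 stress differences lie to the right of 0 in each fit, between 0.43 and 0.90, and the difference between control females and control males lies on both sides of 0.

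The spread of Arrdc3 among libraries of a group was 9.35% of the mean in control males, 10.4% in stressed females, 11.8% in stressed males and 15.8% in control females. Counting error alone, the square root of the counts, would give 2.62% to 6.00%, so most of the spread lies beyond it. In the 3 featureCounts libraries, where mates were counted singly, this understates the error, and the 2.62% is that of control female 10. On the log2 scale the SD within groups was 0.17. The median of the 14241 genes was 0.28. Among the 1000 genes nearest in level, with means of 14.7 to 21.6 CPM, the median was 0.18, so Arrdc3 varied about as much as other genes of its level. As the choice of the gene can favour a small spread, this is a description only. The largest deviations from a group mean were 0.28 above in control female 10, 0.24 below in control female 7 and 0.23 below in stressed female 4, on the log2 scale.

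For comparison between genes the level was divided by exonic length. Arrdc3 had 14.2 ± 1.5 CPM per kb in stressed females, 12.0 ± 1.4 in stressed males, 8.18 ± 1.3 in control females and 7.73 ± 0.72 in control males (SD, n = 4). The median over the genes tested was 1.99 to 2.02 CPM per kb in the 4 groups. In control males 81.8% of tested genes had a lower level per length than Arrdc3, and in stressed females 91.0%. The RNA was thus well above the middle of the genes tested in control tissue too.

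Arrdc3 lay apart from other genes on chromosome 2. Within 1000 kb of either end the annotation holds 9 genes, all downstream, and 4 of these passed the filter on low counts. The nearest annotated gene upstream ended 1081 kb away and had 0 to 5 counts per library, and the nearest tested one upstream (5569935 to 5579894) ended 3153 kb away. The nearest annotated gene downstream (8860250 to 8884105) began 117 kb away and had 0 to 16 counts. These genes were chosen by position alone, and their stress difference was tested. By edgeR's quasi-likelihood test 0 of the 4 were called on average over the sexes, where 0.337% of all genes were. An unadjusted p under 0.05 by that test was reached by 0 of the 4 and by 1448 of the 14241 genes tested. At such shares 0 of 4 is the usual outcome, so these counts do not set the neighbours apart from other genes. The smallest adjusted p was 0.590, and DESeq2 and limma voom also called 0. Log2 fold changes ran from -0.16 to 0.31, with a median of 0.03, against 0.71 for Arrdc3.

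The nearest tested gene downstream (8926850 to 9504134, minus strand) begins 184 kb from Arrdc3. Other annotated genes lie inside its span, with 39, 14 and 36 counts over all libraries against 15753 for the gene itself. Its counts are therefore uncertain. Its level was 31.0 ± 16 CPM in stressed females against 22.3 ± 5.3 CPM in their controls, and 25.2 ± 3.9 against 22.8 ± 0.76 CPM for males (SD, n = 4). Its log2 fold change on average over the sexes was 0.31 (SE 0.18, adjusted p = 0.590 by edgeR). In females it was 0.47 (SE 0.25) with all libraries and 0.05 (SE 0.15) without stressed female 1, which had 54.4 CPM. It was 0.30 (SE 0.24) without control female 7, which had 14.4 CPM. For the nearest tested gene upstream the log2 fold change was -0.11 (SE 0.12), with adjusted p = 0.832 by edgeR.

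**Figure D3:**
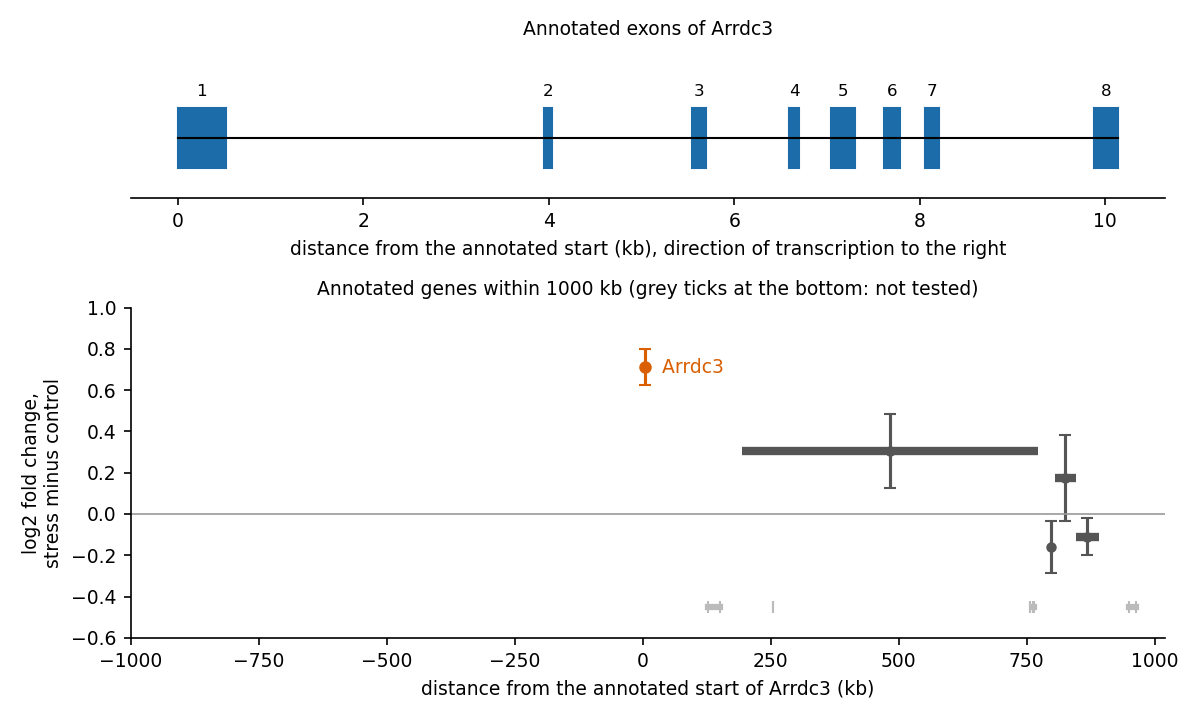
Top, the 8 annotated exons of Arrdc3 (boxes) by distance from the annotated start in kb. Bottom, log2 fold change with stress on average over the sexes (points, ± SE) of Arrdc3 and of the 4 tested genes within 1000 kb, whose spans are drawn as bars. Arrdc3 is at 0.71 and the 4 others between -0.16 and 0.31, and 5 genes that were not tested are marked at the bottom.

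Genes were ranked by how closely their pattern followed that of Arrdc3, as Pearson's r of log2 CPM over the 16 libraries, a description that carries the difference between stressed and control libraries with it. The files do not pair identifiers with names, and 0 identifiers matched the name table used here, so other genes are given by identifier or position. Most alike was ENSRNOG00000004003 (chromosome 13, 104284660 to 104321455), with r = 0.92. It had 11.6 ± 1.1 CPM in stressed females against 5.55 ± 0.98 CPM in their controls, and 9.69 ± 0.68 against 5.45 ± 1.0 CPM for males (SD, n = 4). Next was ENSRNOG00000003977 (chromosome 10, 16970626 to 16973418), with r = 0.91, at 26.5 ± 1.7 and 6.57 ± 1.8 CPM in stressed and control females, and 20.3 ± 2.6 and 5.30 ± 0.56 CPM in stressed and control males (SD, n = 4). Both had the order of group means that Arrdc3 had. Of the other 14240 genes 16 had r above 0.8.

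Opposite in pattern was ENSRNOG00000019741 (chromosome 16, 20589481 to 20592449), with r = -0.91. Stressed females had 5.12 ± 0.38 CPM of it and control females 7.21 ± 0.81 CPM, and stressed and control males 5.73 ± 1.2 and 7.76 ± 0.72 CPM (SD, n = 4). ENSRNOG00000049975 (chromosome 5, 154650632 to 154655132), a gene with 1 annotated exon, followed with r = -0.86, at 20.2 ± 2.6 against 26.8 ± 3.4 CPM in females and 22.1 ± 2.4 against 28.2 ± 3.5 CPM in males (SD, n = 4). The most alike and most opposite genes were picked by their correlation with Arrdc3, which was chosen for its rise. Their stress differences are therefore given as a description, with no test. For ENSRNOG00000019741 the libraries overlapped between stressed and control rats.

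The same ranking was made on deviations from the 4 group means, which removes the differences between groups and leaves how the gene varied from library to library. ENSRNOG00000004003 then had r = 0.43 and ENSRNOG00000003977 r = 0.091, so their likeness to Arrdc3 lay largely in the group differences. The opposite gene on chromosome 16 still had r = -0.71. Most alike within groups, with r = 0.88, was a gene on chromosome 13, at 49285310 to 49313940 with 23 annotated exon entries. Its r over all libraries, without removing the groups, was 0.83. As the highest of 14240 values, the r within groups is large in part by selection, and 11 genes had one above 0.8. In the 13 HTSeq libraries this gene had r = 0.83 within groups and ranked 21. Stressed females had 43.8 ± 2.3 CPM of it and control females 39.6 ± 4.6 CPM, and stressed and control males 40.3 ± 0.95 and 35.8 ± 2.8 CPM (SD, n = 4). Its highest libraries, both at 45.9 CPM, were stressed female 3 and control female 10, which was also the highest control for Arrdc3. This chromosome 13 gene overlaps another annotated gene, so its counts are uncertain. A gene on chromosome 11 (70693366 to 70753632) followed with r = 0.85 within groups and r = 0.14 over all libraries. In the 13 HTSeq libraries it ranked 28 within groups. Of the 50 genes most alike within groups, 12 were among the top 50 in those libraries. Most opposite within groups were genes on chromosome 18 (81466716 to 81499051) and chromosome 2 (25041185 to 25052127), both with r = -0.82 and with mean levels of 1.16 to 3.40 CPM in the 4 groups. The second of these also overlaps another annotated gene, and its counts are uncertain. The lists of the 50 genes most alike over all libraries and within groups shared 4 genes, which is 8% of each list. Each list holds 50 of 14240 genes, and the size of this overlap was not tested.

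**Figure D4:**
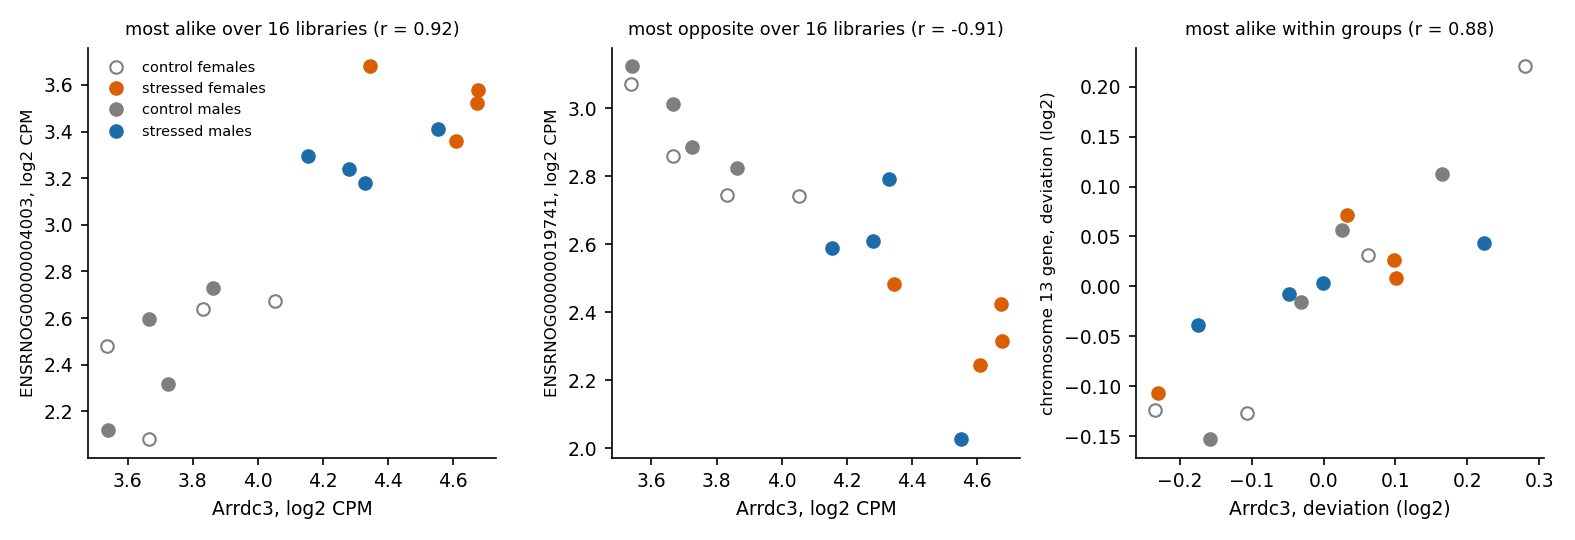
Each point is 1 of the 16 libraries. Left and middle, log2 CPM of Arrdc3 against the gene most alike (ENSRNOG00000004003, r = 0.92) and the gene most opposite (ENSRNOG00000019741, r = -0.91), and right, deviations from group means on the log2 scale for Arrdc3 and the chromosome 13 gene at 49285310 to 49313940 (r = 0.88). Stressed and control libraries form separate clouds on the left.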

How the data were processed

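The authors deposited unnormalised counts of 32883 Ensembl genes for each of 16 libraries. Total RNA was amplified and made into libraries by a NuGen Ovation kit and read as 75 bp paired ends, per the labels' protocols. The submitters' processing notes name STAR 2.5.2a and HTSeq, among other tools, with the build Rnor_6.0. Per the file headers, 3 libraries were counted with featureCounts 1.6.1 and Ensembl release 92, without a paired or strand option. The strand setting of the 13 HTSeq libraries is not given in the sources used here. Lines that name no gene, 44.8% to 64.7% of the entries of HTSeq files, were left out.

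In R 4.3.3, edgeR 4.0.16 filtered low counts by filterByExpr (14241 genes passed), computed TMM factors and fitted 4 group means by robust quasi-likelihood. Adjusted p-values are Benjamini-Hochberg values over all genes tested. SE was taken as the log2 difference over the square root of its F statistic, and intervals are from the t distribution at 95%. Alternatives used DESeq2 1.42.0 and limma 3.58.1, other scalings and filters, the counting tool, and fits without each library. Log2 CPM used a prior count of 2. Named genes are Arrdc3, the nearest tested genes on chromosome 2, and the 2 genes most and least alike by each correlation. Gene and marker lists needed names and were not used here, so the tissue label was not checked against markers. The gene, lists and tests were chosen with earlier results of these data known. Replicate numbers pair no libraries.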

Additional observations from a re-analysis of the deposited data

Results flagged for a closer look

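The 4 values of each group were screened for a library whose gap to the nearest of the others exceeds Dixon's 95% critical value, for Arrdc3 and the 10 other genes named. Of 44 groups screened, 2 had such a library, and Arrdc3 had 0 in its 4 groups. By chance alone about 1 in 20 groups would be picked. Both were of ENSRNOG00000016306 (chromosome 2, 8926850 to 9504134, a span that holds other annotated genes), the nearest tested gene downstream of Arrdc3. It had 54.4 CPM in stressed female 1 against 20.7 to 25.5 CPM in the other stressed females, and 14.4 CPM in control female 7 against 24.5 to 25.8 CPM in the other control females. Arrdc3 itself had 25.5 CPM in stressed female 1, close to stressed female 2, and 11.5 CPM in control female 7, the lowest of its group.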

How the results depend on the processing

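The stress differences of Arrdc3 kept their sign in every alternative run, and without single libraries they lay at 0.67 to 0.77 on average, 0.71 to 0.90 in females and 0.55 to 0.69 in males. The male value of 0.63 moved by more than the SD within groups only without TMM factors on all counts, at 0.43, a setting chosen after seeing the data. The difference between control females and control males, 0.09, changed sign in the 13 HTSeq libraries (-0.031, adjusted p = 1.0 by edgeR), and lay at -0.015 to 0.16 without single libraries. Control female 10 decides that sign, and adjusted p was 0.809 to 1.0 over the alternatives. Without TMM factors on all counts, 0.48 stood in place of 0.25 for stressed females minus stressed males, where the median of all genes was 0.24, and 0.33 in place of 0.16 for the difference of the stress effects, where that median was 0.19. For stressed rats adjusted p was 0.613 to 0.998, and for the difference of the stress effects 0.981 to 1.0. Counts of called genes, given as background, moved more. On average over the sexes 48 genes were called, 207 with no filter on low counts, 103 by DESeq2, 29 in the HTSeq libraries, 13 without TMM factors on all counts but 48 on nuclear counts, 27 without both control female 7 and stressed male 14, a fit added after seeing the data, and 28 to 56 without single libraries. For the sexes 16 were called in controls, 54 with no filter and 10 in the HTSeq libraries, and 13 in stressed rats, 105 with no filter. For the difference of stress effects 0 were called, 36 with no filter and 1 by DESeq2. No paired analysis was possible because the groups share no replicate numbers.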
